A study of Mus musculus with 2 samples.

Results

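The genes described here encode the respiratory chain and ATP synthase of the mitochondrial inner membrane. They were chosen by symbol alone, with no use of measured values: symbols beginning Nduf, Uqcr, Atp5, Cox4i, Cox5, Cox6, Cox7 or Cox8, the succinate dehydrogenase genes Sdha, Sdhb, Sdhc and Sdhd, Cycs, and the protein-coding genes of mitochondrial DNA beginning mt-Nd, mt-Co, mt-Cytb or mt-Atp. The rule found 106 of the 30905 genes in the count matrices. Of these, 93 are nuclear genes and 13 are mitochondrial genes, which are every protein-coding gene of mouse mitochondrial DNA. The nuclear members fall into 7 core, 29 accessory and 8 assembly genes of complex I, 4 of complex II and 8 of complex III. There is 1 for cytochrome c, with 20 of complex IV and 16 of complex V, the ATP synthase. Ndufa4, Ndufa4l2 and Cox7a2l are counted with complex IV.

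The libraries were droplet single-cell RNA-seq of CD45+ cells, the leukocytes, sorted from colorectal tumor tissue of male C57BL/6 mice. All mice received azoxymethane, a carcinogen, at 12 mg/kg, and then 3 cycles of 7 days of dextran sodium sulfate at 2.5%, which injures the colon, each followed by 14 days of water. From the second cycle on, one group ate ad libitum and the other was given a fasting-mimicking diet (FMD); the age of the mice and the composition of the diet are not given in the sources used here. Each group is 1 library of cells pooled from 4 mice, so no difference between the diets could be tested: the intervals given are exact and cover counting error only. The labels' account of cell isolation also speaks of matched normal colon, while both libraries are labelled as tumor tissue.

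Electrons from NADH enter the chain at complex I and those from succinate at complex II. They pass through complex III, cytochrome c and complex IV to oxygen, and the proton gradient built on the way drives complex V. Mitochondrial DNA encodes a few membrane subunits of complexes I, III, IV and V, and all of complex II and cytochrome c come from the nucleus, so each cell must match products of both genomes. In immune cells, resting lymphocytes and antibody-secreting cells are known for their use of oxidative phosphorylation, and neutrophils for few mitochondria and a strong reliance on glycolysis.

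The promoter windows of some nuclear members are shown because these genes come from many chromosomes and yet some of them share short sequence elements. Windows from 250 bases before to 50 after the gene start, from RefSeq on build GRCm38.p6, were matched for 77 of the 93 nuclear members and searched on both strands. The binding motif of NRF1, a regulator of nuclear genes for mitochondria, was in the windows of 19 members (24.7%), against 7.17% of 17491 protein-coding genes. The YY1 motif AAGATGGCG was in 8 member windows (10.4%, against 2.14% of all), the ETS motif CCGGAAG in 18 (23.4% against 12.9%) and the estrogen-related receptor motif TCAAGGTCA in 2 (2.60% against 0.377%). The unfolded protein response element TGACGTGG was also searched and was in 1 (1.30% against 0.823%). These matches are counts of letters and not sites of binding; the NRF1 motif, whose matched letters are in capitals in the stretches printed here, is a near palindrome, so a match can be read on both strands. Stretches with an NRF1 match in capitals follow for a subunit of complex V, 1 of complex IV and 2 of complex II, each read 5′ to 3′ on the gene's strand, which is the minus strand for all 4.
Atp5g2, chr15:102671055-102671114: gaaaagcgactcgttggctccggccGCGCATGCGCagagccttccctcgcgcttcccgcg
Cox6a1, chr5:115349086-115349145: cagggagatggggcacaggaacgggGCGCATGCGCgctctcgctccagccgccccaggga
Sdha, chr13:74350304-74350363: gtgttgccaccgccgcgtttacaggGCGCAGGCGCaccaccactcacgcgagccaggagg
Sdhd, chr9:50603894-50603953: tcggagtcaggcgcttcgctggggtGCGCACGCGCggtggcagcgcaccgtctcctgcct

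The estrogen-related receptor motif stood in the windows of Atp5g3 and Sdhd. In the stretch of Atp5g3 the capitals mark that motif as read on the other strand, and the gene lies on the minus strand.
Atp5g3, chr2:73911345-73911403: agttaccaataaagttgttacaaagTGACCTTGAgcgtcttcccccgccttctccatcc

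Mitochondrial genes lie end to end on chromosome M, and neighbors overlap. The last 43 bases of mt-Atp8 are also the first 43 of mt-Atp6 on the same strand, and mt-Nd4l shares 7 bases with mt-Nd4. The mt-Atp8 and mt-Atp6 stretch is shown, all of it shared, because reads within it cannot be given to 1 of the genes, and both pairs are carried on single RNAs.
mt-Atp8 and mt-Atp6, chrM:7927-7969: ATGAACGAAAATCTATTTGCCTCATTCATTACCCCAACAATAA

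After filtering, 4869 cells of the ad libitum and 4623 of the FMD library remained, with a median of 5508 and 5743 UMIs (unique molecular identifiers, each counting 1 captured RNA) per cell. Ptprc, the CD45 gene used for the sort, had a UMI in 92.0% and 93.5% of the kept cells and the epithelial gene Epcam in 3.57% and 2.92%. The libraries shared 7 barcodes, 4 of them among kept cells. Cells were clustered without the respiratory chain genes, and 8933 of 9492 kept cells fell into 11 classes named from marker genes and called by those names with "-like"; these names were rebuilt here and are not the authors' annotation. Sums were scaled to 10000 UMIs, and single genes to 1000000 (written CPM), of the UMIs outside immunoglobulin and mitochondrial genes. The method reads one tag near the 3′ end per RNA, so CPM was not divided by gene length, and levels of different genes are compared only as tags captured. Reads that match a processed pseudogene equally well can be lost from a gene's count, and respiratory chain genes have many such copies. Reads in a stretch shared with another gene on the same strand can be lost as well. Ndufa13, Cox4i1, Ndufb2, Ndufb8 and Ndufb9 each overlap another gene on their strand.

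Over all kept cells the nuclear members made up 1.23% of the ad libitum and 1.26% of the FMD library's UMIs and the mitochondrial members 4.69% and 5.004%. At least 1 UMI was found for 90 of the 93 nuclear members, and 87 had 100 or more over both libraries. Cox7b2, Cox8b and Cox8c, isoforms of complex IV subunits known from testis, heart and muscle, had no UMI in either library, which allows up to 3 UMIs in each. The most abundant nuclear members were Uqcrh, the hinge protein of complex III, at 679 CPM with ad libitum feeding and 654 with FMD, Cox4i1, the widespread form of subunit 4 of complex IV, at 669 and 645, and Cox8a, a small membrane subunit of complex IV, at 645 and 629. Among mitochondrial members mt-Co3, the third catalytic-core subunit gene of complex IV, led with 10945 and 11704 CPM. It was followed by mt-Atp6, a proton channel subunit of complex V, with 10142 and 10069, and mt-Co1, which holds the oxygen reduction site, with 9593 and 9901. At the other end, mt-Nd6, the only one of the 13 on the light strand, had 13.2 and 13.3 CPM. Between them lay mt-Co2 at 7422 and 7624 CPM, mt-Cytb of complex III at 5299 and 5549, mt-Nd1 at 3108 and 3054, mt-Nd4 at 2979 and 3101, mt-Nd2 at 2239 and 2207, mt-Nd3 at 683 and 653, mt-Nd5 at 423 and 410, mt-Nd4l at 110 and 104, and mt-Atp8 at 35.4 and 32.1. The order of all 13 was the same in both libraries except for mt-Nd1 and mt-Nd4, which changed places.

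Cell classes differed in the nuclear-encoded sum by up to about 4-fold, with plasma-like cells at the top on this scale (below B-like cells when all UMIs are the denominator) and neutrophil-like cells at the bottom. Plasma-like cells, which secrete antibody, held 249 nuclear-encoded UMIs per 10000 under ad libitum feeding (93 cells) and 253 under FMD (32 cells). Cells of the germinal center B-like class, which divide and mutate their antibody genes, held 195 (72 cells) and 189 (85 cells). Gamma delta T-like cells followed with 178 (70 cells) and 174 (48 cells). The libraries differed by less than these steps between classes.

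Regulatory T-like cells held 167 nuclear-encoded UMIs per 10000 in 178 ad libitum cells and 158 in 286 FMD cells. Macrophage or dendritic-like cells held 160 (129 cells) and 147 (170 cells), and helper or naive T-like cells 147 (668 cells) and 143 (658 cells). In these classes the FMD library had the lower value. CD8 T-like cells held 134 (230 cells) and 132 (202 cells), innate lymphoid-like cells 132 (25 cells) and 133 (81 cells), and B-like cells, the largest class, 121 (3042 cells) and 123 (2713 cells). CD8 T-like and innate lymphoid-like cells cannot be ordered, since the counting interval of the innate lymphoid-like value, 126.9 to 137.4 in the ad libitum library, holds the CD8 T-like value. Neutrophil-like cells held 60.7 (71 cells) and 60.4 (55 cells), and mast-like cells, of which there were 9 and 16, held 96.9 and 102.

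The mitochondrially encoded sum was ordered differently. B-like cells held 563 and 577 mitochondrial UMIs per 10000 in the ad libitum and FMD libraries, plasma-like cells 569 and 559, and germinal center B-like cells 519 and 549. Helper or naive T-like cells held 499 and 552, CD8 T-like cells 487 and 512, and innate lymphoid-like cells 494 and 457. Gamma delta T-like cells held 431 and 476, macrophage or dendritic-like cells 426 and 430, regulatory T-like cells 416 and 432, and neutrophil-like cells 305 and 268. On this denominator B-like and plasma-like cells were thus near the same mitochondrial level while their nuclear-encoded sums differed 2.05-fold and 2.04-fold. Of all UMIs, the mitochondrial members took 2.12% and 2.13% in plasma-like and 5.29% and 5.41% in B-like cells.

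The ratio of mitochondrial to nuclear members follows from these sums. It was lowest in plasma-like cells, at 2.29 and 2.21, followed by gamma delta T-like cells at 2.42 and 2.73, regulatory T-like cells at 2.49 and 2.73, and germinal center B-like and macrophage or dendritic-like cells at 2.66 each in the ad libitum library. B-like cells stood at 4.64 and 4.67. Neutrophil-like cells reached 5.02 and 4.43, but from unequal cells: their median cell held only 110 and 137 mitochondrial UMIs per 10000, against 553 and 562 in B-like cells, with an upper quartile of 380 and 383. Mitochondrial UMIs also limited which cells were kept, at 20% of a cell's UMIs, and the 661 and 694 barcodes removed for this had a median of 36.1% and 37.2%.

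**Figure D1:**
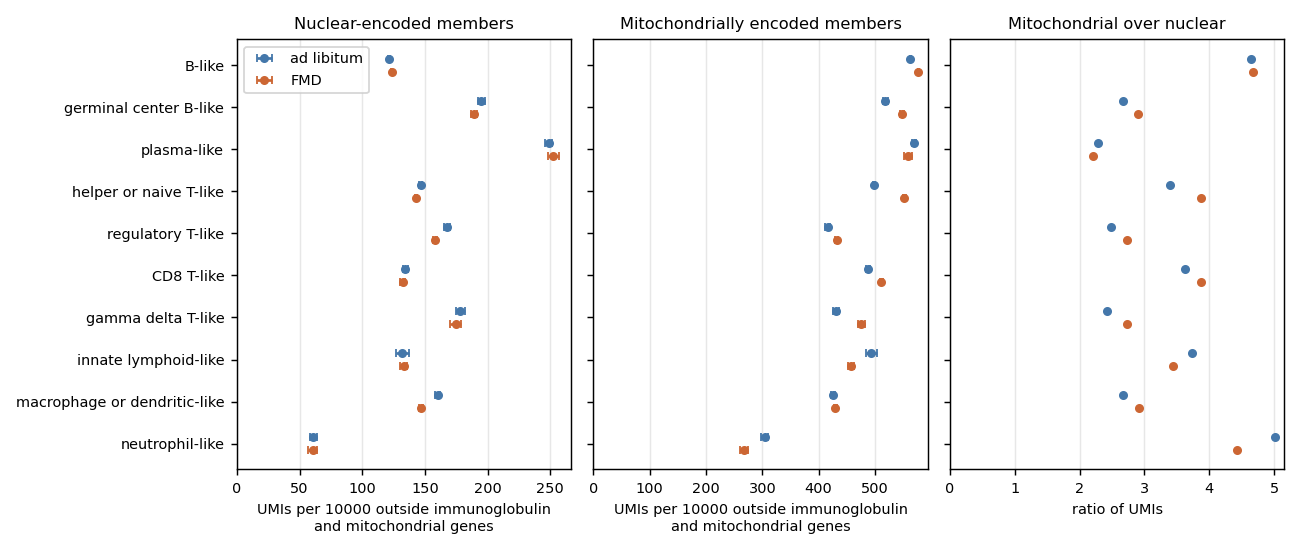
Nuclear-encoded and mitochondrially encoded UMIs per 10000 UMIs outside immunoglobulin and mitochondrial genes, in each class with at least 25 cells per library, 1 point per library with its exact counting interval, and the ratio of the mitochondrial to the nuclear part. On this denominator plasma-like cells are highest in the nuclear part (249 and 253; on all UMIs, 92.7 and 96.2, they are below the 114 and 116 of B-like cells) and level with B-like cells in the mitochondrial part (569 and 559 against 563 and 577; on all UMIs they are lower there too, with a log2 ratio of -1.33), and neutrophil-like cells are lowest in both on this denominator.

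B-like cells were not uniform. The cluster led by Myc, Egr2 and Egr3, genes induced by activation, held 118 and 117 nuclear-encoded and 473 and 475 mitochondrial UMIs per 10000. A cluster led by Bhlhe41 and Apoe held 128 and 134 nuclear-encoded and 672 and 646 mitochondrial UMIs, and the cluster led by heat shock genes such as Hspb1 held 111 and 109 nuclear-encoded and 563 and 577 mitochondrial UMIs. Across these B-like clusters the mitochondrial level thus varied more than the nuclear-encoded one.

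Single genes were compared between each class and B-like cells within each library, where at least 20 UMIs were expected in the smaller library. The expected number used the mean level of the class and B-like cells. In every class a gene could thus pass by its level in only one of them. The counts of higher and lower members describe only those that passed. A member was counted when it was at least 1.5-fold apart in the same direction in both libraries. In plasma-like cells 60 of 78 nuclear members were higher (all genes: 29.6% higher) and 2 were lower (all genes: 25.1%). The median log2 ratio of the nuclear members was 1.13, and that of all 3532 genes compared was 0.00. Accessory subunits of complex I had the highest share, 26 of 29, with 6 of 7 core subunits, 12 of 15 of complex V, 9 of 12 of complex IV, 4 of 8 of complex III, 2 of 4 of complex II and Cycs. Of the 2 complex I assembly genes compared none was higher. As sums, the accessory subunits of complex I stood 2.67-fold and 2.66-fold over B-like cells in the ad libitum and FMD libraries and the core subunits 2.44-fold and 2.55-fold. Complex V stood at 1.95-fold and 1.96-fold, complex III at 1.88-fold and 1.74-fold, and complex IV at 1.76-fold and 1.77-fold. The complex IV sum includes Cox7a2l, which went the other way, with 211 and 186 CPM in plasma-like and 453 and 439 in B-like cells. The place of complex IV in this order therefore depends on counting Cox7a2l with it. None of the 11 mitochondrial members compared was 1.5-fold apart in both libraries on this denominator, and all 11 were lower with all UMIs as denominator.

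These plasma-like values depend on what they are divided by. Immunoglobulin transcripts took 60.6% and 59.8% of plasma-like UMIs, and against all UMIs the nuclear-encoded sum of plasma-like cells was 92.7 and 96.2 per 10000, below the 114 and 116 of B-like cells. On that scale 11 of the 78 nuclear members were higher and 20 lower, while 9.85% of all genes were higher and 68.1% lower, and the median of all genes was -1.31. All 11 mitochondrial members were lower on it, with a median of -1.30. The distance between the median of the nuclear members and that of all genes, 1.13 on the log2 scale, is the same on both scales by construction, since a denominator shifts every gene equally. Each plasma-like log2 ratio of a gene is smaller by about 1.32 when all UMIs are the denominator, so that members with a ratio under that value then lie below B-like cells. Plasma-like cells were also the deepest, with a median of 38021 and 40722 UMIs per cell against 5070.5 and 5221 in B-like cells. When every cell was thinned to 1000 UMIs of all genes, the nuclear-encoded log2 ratio to B-like cells was 0.95, against 1.03 for the sums.

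The single gene with the largest distance was Ndufa1, a short membrane subunit of complex I on chromosome X (GRCm38, X:37187588-37191163, minus strand). Its level was 868 CPM in ad libitum and 895 in FMD plasma-like cells, against 71.4 and 69.1 in B-like cells. The log2 ratios were 3.60 and 3.70. A UMI of Ndufa1 was found in 89.2% and 100% of plasma-like cells, against 29.9% and 30.04% of B-like cells. After thinning to 1000 UMIs outside immunoglobulin and mitochondrial genes, the shares were 52.7% and 56.3% against 6.60% and 6.10%. This thinning does not make cells equal in all UMIs. No plasma-like cell held more than 51 of its UMIs, so the level came from many cells. The class next in order on this denominator was gamma delta T-like, with 418 and 521 CPM. All others lay between 63.2 CPM in ad libitum neutrophil-like cells and 179 CPM in ad libitum regulatory T-like cells. With all UMIs as denominator, gamma delta T-like cells were above plasma-like cells in both libraries. They held 241 and 191 Ndufa1 UMIs among 601325 and 384375 UMIs, and plasma-like cells 1138 and 468 among 3516688 and 1371786.

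Ndufa4, a small subunit now assigned to complex IV, stood at 802 and 767 CPM in plasma-like cells and 93.6 and 108 in B-like cells, log2 ratios of 3.099 and 2.826. It is on chromosome 6 (6:11900292-11907497, minus strand). Uqcr11, a small subunit of complex III (10:80402997-80406830, minus strand), stood at 388 and 308 CPM against 41.2 and 46.8, log2 ratios of 3.23 and 2.72. For Ndufa1, Ndufa4 and Uqcr11 the plasma-like CPM was above that of the other 9 classes compared in both libraries. For Ndufa1 this rank did not hold with all UMIs as denominator. For Ndufa4 and Uqcr11 it was then nearly lost in the FMD library. Ndufa4 had 401 UMIs among 1371786 in plasma-like and 111 among 384375 in gamma delta T-like cells. For Uqcr11 the regulatory T-like level was nearly the same as the plasma-like level. Sdhc, a membrane anchor of complex II, stood at 77.8 and 89.9 CPM against 18.2 and 18.7, whereas the catalytic subunit Sdha stood at 99.2 and 76.5 against 80.3 and 80.7. Of the remaining complex II genes, Sdhb, the iron-sulfur subunit, stood at 175 and 214 CPM against 62.2 and 64.5 and Sdhd, the other anchor, at 76.3 and 70.8 against 58.6 and 65.8. Complex II was thus uneven, with Sdhb and Sdhc past 1.5-fold in both libraries and Sdha and Sdhd not.

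The members that were lower in plasma-like cells were Cox7a2l and Ndufaf4. Cox7a2l, also known as SCAF1 and known for joining complexes III and IV into supercomplexes (17:83501918-83517330, minus strand), stood at 211 and 186 CPM, against 453 and 439 in B-like cells, log2 ratios of -1.10 and -1.24. After thinning, 12.1% and 18.8% of plasma-like cells held a UMI of Cox7a2l against 36.6% and 34.8% of B-like cells. Its close relative Cox7a2, a subunit of complex IV itself, went the other way with 487 and 476 CPM against 187 and 187. Ndufaf4, a complex I assembly factor, stood at 36.6 and 36.4 CPM against 55.5 and 59.6. In CD8 T-like cells Cox7a2l was at 586 and 596 CPM, the highest of the 10 classes compared.

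The genes for the c subunit of ATP synthase make the same mature protein from different precursors and were higher in plasma-like cells by different amounts. Atp5g1 (11:96068852-96075670, minus strand) stood at 503 and 492 CPM in plasma-like and 123 and 129 in B-like cells. Atp5g3 stood at 306 and 316 against 134 and 133. Atp5g2 (15:102662864-102672352, minus strand), the most abundant of the set in B-like cells at 473 and 470, stood at 579 and 685, log2 ratios of 0.29 and 0.54 where Atp5g1 had 2.04 and 1.93. Atp5g1 therefore made up a larger part of the c subunit transcripts in plasma-like cells than in B-like cells in both libraries. Cycs, the gene of cytochrome c (6:50562563-50566538, minus strand), stood at 392 and 385 CPM in plasma-like cells against 144 and 135, and Cox6a1, a subunit of complex IV, at 431 and 530 against 143 and 145. Uqcrh, the member with the most UMIs in complex III, was not among those apart, with 583 and 582 CPM against 675 and 663.

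**Figure D2:**
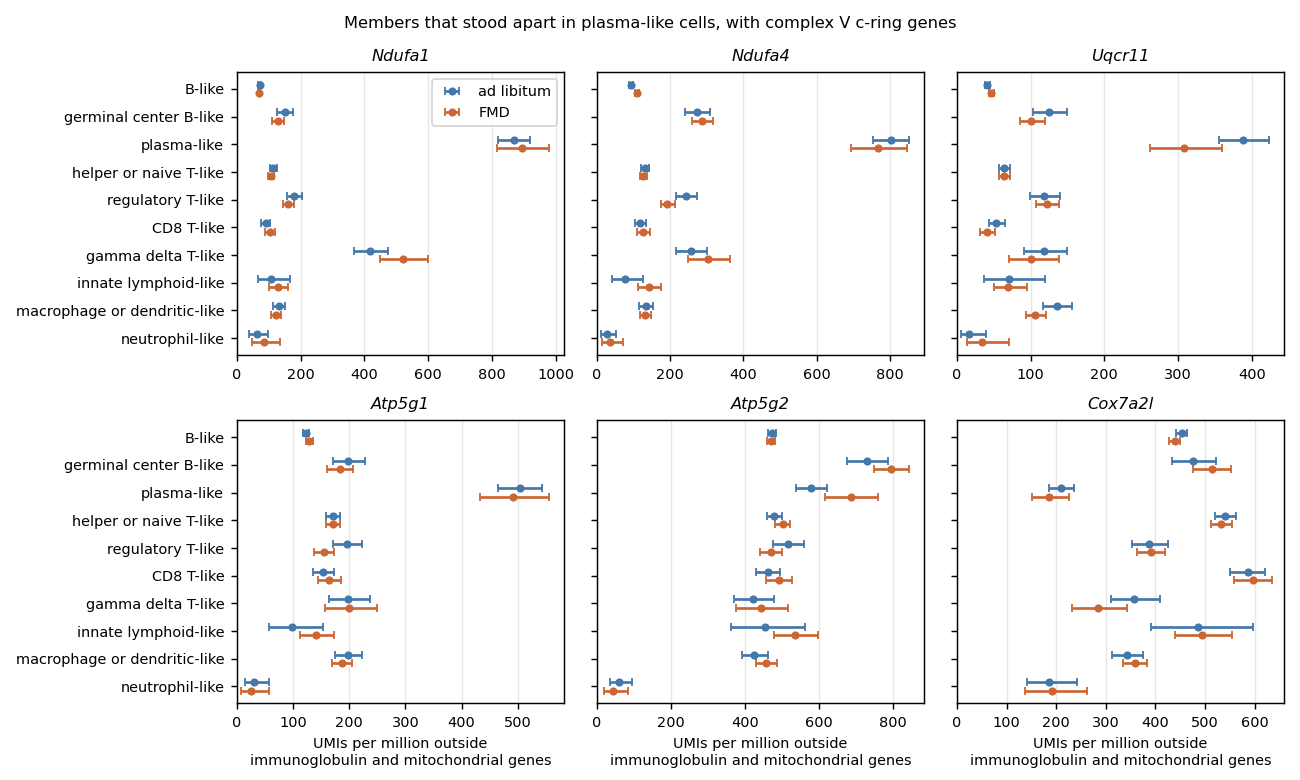
CPM of Ndufa1, Ndufa4, Uqcr11, Atp5g1, Atp5g2 and Cox7a2l in each class, 1 point per library with its exact counting interval. Ndufa1 stands at 868 and 895 CPM in plasma-like and 418 and 521 in gamma delta T-like cells and at 179 or less in the others. With all UMIs as denominator, gamma delta T-like cells are above plasma-like cells for Ndufa1. Cox7a2l is lower in plasma-like cells (211 and 186) than in B-like cells (453 and 439).

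Neutrophil-like cells were lower in both genomes' members. Of 32 nuclear members with enough UMIs to compare, 18 were at least 1.5-fold lower than in B-like cells in both libraries (all genes: 38.7% lower) and 0 were higher (all genes: 36.4%). The median log2 ratio was -1.10 against -0.09 for all 1366 genes compared. The minimum of 20 expected UMIs was met through the mean of both classes, so members could pass it by their B-like level, and 10 of the 18 had under 20 UMIs in FMD neutrophil-like cells. These counts therefore describe only the members that passed, and 61 nuclear members were not compared; the sums of 60.7 and 60.4 per 10000 use all 93. Among those not compared was Ndufaf7, named after its values were seen, at 46.6 and 63.9 CPM from 14 and 13 UMIs against 8.95 and 6.42 CPM in B-like cells. All 10 mitochondrial members compared were lower. Atp5g2 had the largest distance, at 59.9 and 44.2 CPM from only 18 and 9 UMIs, log2 ratios of -2.98 and -3.41. Atp5a1, the alpha subunit in the catalytic head of complex V, had ratios of -2.25 and -3.38 from only 15 and 5 UMIs, and Uqcrh, at 203 and 177 CPM, had ratios of -1.73 and -1.91.

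Some members were near the B-like level in neutrophil-like cells. Atp5l, the g subunit of complex V, stood at 446 and 398 CPM against 389 and 387. Ndufb9, an accessory subunit of complex I, had log2 ratios of 0.03 and 0.01 and Uqcrq of complex III -0.07 and 0.04. Of the mitochondrial members mt-Co1 was the least apart, with log2 ratios of -0.69 and -0.65, and mt-Nd2 the most, with -1.41 and -1.76. Ribosomal protein genes took 5.34% and 4.72% of the neutrophil-like denominator against 35.0% and 34.8% in B-like cells, and without them in the denominator 25 of the 32 nuclear members were lower (all genes: 48.2%) and the median was -1.64.

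In germinal center B-like cells 44 of 79 nuclear members were higher than in B-like cells (all genes: 31%) and 0 lower (all genes: 9.09%), with a median log2 ratio of 0.77 against 0.32 for all genes. The largest were Ndufa4, at 273 and 286 CPM with ratios of 1.54 and 1.40, Ndufc2 with 1.42 and 1.41, and Ndufs8, an iron-sulfur core subunit of complex I, with 1.47 and 1.34. The lowest was mt-Nd5, at 278 and 319 CPM against 495 and 468. These cells were deeper than B-like cells, with medians of 12643.5 and 15571 UMIs. Ribosomal protein genes took 25.7% and 27.3% of their denominator. With those genes left out of it, 37 nuclear members were higher (all genes: 24.4%) and 0 lower (all genes: 13.1%). The median was then 0.60 against 0.14 for all genes, and 1 of 12 mitochondrial members was lower.

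In gamma delta T-like cells 27 of 70 nuclear members were higher (all genes: 31.1%) and 0 lower (all genes: 14.8%), a share near that of all genes for the higher side. Ndufa1 had log2 ratios of 2.55 and 2.91, Ndufv3 of 1.57 and 1.56 and Ndufa13, an accessory subunit of complex I also known as GRIM-19, of 1.62 and 1.44. With ribosomal protein genes left out of the denominator, 10 nuclear members were higher (all genes: 21.8%) and 1 lower (all genes: 22.9%), and 6 of 11 mitochondrial members were lower, against 1 of 11 with those genes included. These genes took 19.0% and 17.4% of the gamma delta T-like denominator.

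In regulatory T-like cells 21 of 79 nuclear members were higher (all genes: 28.2%) and 0 lower (all genes: 13%), with a median of 0.42 against 0.25 for all genes. Uqcr11 led, at 118 and 122 CPM with log2 ratios of 1.52 and 1.38, followed by Ndufa13 with 1.53 and 1.31. Of 12 mitochondrial members 4 were lower, and mt-Nd2 was the lowest with ratios of -0.90 and -0.93. Without ribosomal protein genes in the denominator 7 nuclear members were higher (all genes: 20.3%) and 10 of 12 mitochondrial members were lower (all genes: 19.1%).

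In macrophage or dendritic-like cells 14 of 79 nuclear members were higher (all genes: 24.5%) and 2 lower (all genes: 22%), with a median of 0.39 against -0.05 for all genes. Uqcr11 stood at 135 and 107 CPM, ratios of 1.72 and 1.19, and Sdhc at 43.0 and 35.8. Ndufaf4 stood far lower than in B-like cells, at 14.6 and 17.2 CPM with ratios of -1.93 and -1.79. With ribosomal protein genes left out of the denominator the count was 2 higher (all genes: 19.4%) and 5 lower (all genes: 32.5%), so the side on which more members lay turned with the denominator. On that denominator the median was 0.11 for the nuclear members and -0.33 for all genes.

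The other T-like and innate lymphoid-like classes were close to B-like cells. Helper or naive T-like cells had 6 of 85 nuclear members higher (all genes: 21.2%) and 0 lower (all genes: 12.9%), led by Ndufv3, an accessory subunit of complex I, with 129 and 125 CPM against 60.4 and 60.1, and Ndufa13 with ratios of 1.06 and 0.76. CD8 T-like cells had 2 of 79 higher (all genes: 14.9%) and 1 lower (all genes: 16%). Innate lymphoid-like cells had 2 of 38 higher (all genes: 19.8%) and 0 lower (all genes: 19.4%), led by Ndufa13 with ratios of 0.750 and 1.007 and Cox6c with 0.81 and 0.71. Fewer members than all genes were thus past 1.5-fold in each of these classes, and none of their mitochondrial members was. All genes were not matched to the members in UMIs per gene. These shares therefore do not compare members with genes of like abundance.

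**Figure D3:**
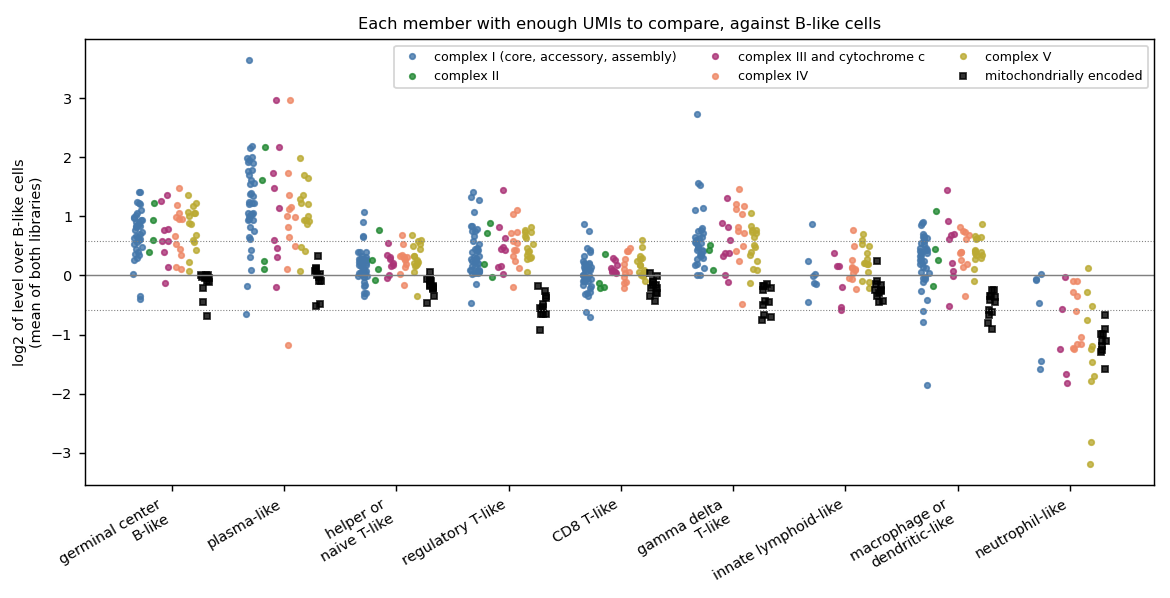
Log2 ratio to B-like cells (mean of both libraries) of each nuclear (circles, colored by complex) and mitochondrial (squares) member compared, by class, with dotted lines at 1.5-fold in either direction. Most nuclear members of plasma-like cells lie above 0 (median 1.13; -0.18 with all UMIs as denominator) and those of neutrophil-like cells below it (median -1.10).

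The mitochondrial members did not differ between classes by one common factor, although they share their precursor RNAs. mt-Nd2, a membrane subunit of complex I, stood at 2559 and 2530 CPM in B-like cells. It stood at 1885 and 1699 in plasma-like, 1835 and 1910 in germinal center B-like, 1367 and 1327 in regulatory T-like, 1340 and 1707 in gamma delta T-like, and 1289 and 1427 in macrophage or dendritic-like cells, below B-like cells in all of these. mt-Co1 was closer to its B-like level of 9932 and 10189, with 10703 and 10542 in plasma-like and 8693 and 9113 in regulatory T-like cells. Within regulatory T-like cells the log2 ratios to B-like cells thus ran from -0.90 and -0.93 for mt-Nd2 to -0.19 and -0.16 for mt-Co1, and within macrophage or dendritic-like cells from -0.99 and -0.83 to -0.22 and -0.29. This order of genes within a class does not depend on the denominator.

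**Figure D4:**
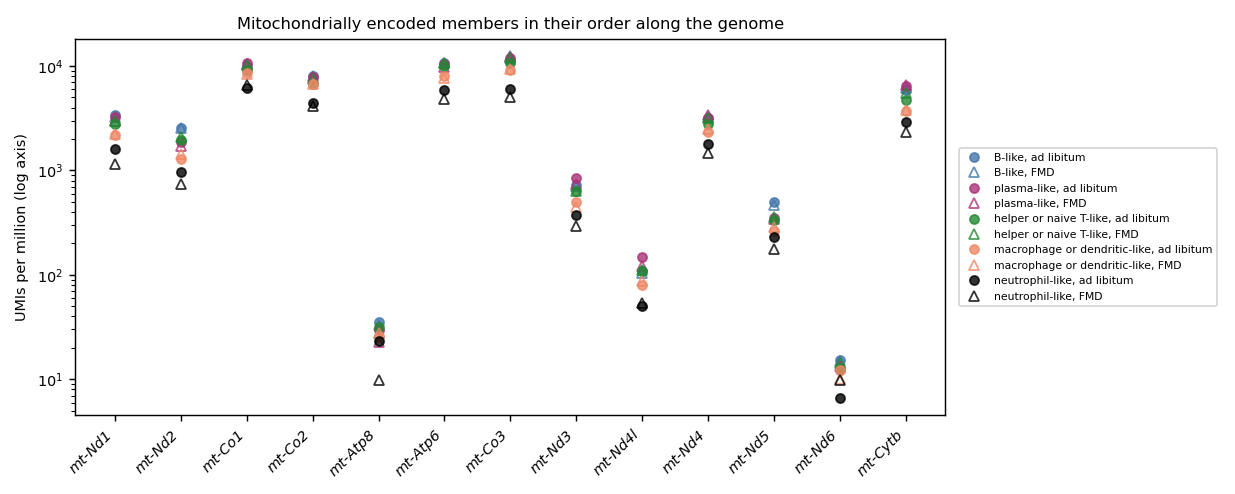
CPM (log axis) of the 13 mitochondrial members in their order on the genome, in B-like, plasma-like, helper or naive T-like, macrophage or dendritic-like and neutrophil-like cells, circles for ad libitum and triangles for FMD. Genes differ far more than classes, and the classes lie farther apart for mt-Nd2 (2559 CPM in B-like and 1289 in macrophage or dendritic-like cells, ad libitum) than for mt-Co1 (9932 and 8530).

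Several complex IV subunits have tissue-specific isoforms, and here nearly all UMIs fell on the widespread forms. Cox6a2, the heart and muscle isoform of subunit 6A, had 68 UMIs in 13 of 4869 ad libitum cells and 97 UMIs in 6 of 4623 FMD cells. Of these 165 UMIs, 148 lay in the 10 cells of 1 small unnamed cluster led by Siglech and Ccr9, where 3 of 4 and 6 of 6 cells held the gene at 970 and 1239 CPM, with up to 28 and 40 UMIs in 1 cell. Outside it, 1 of 3042 and 0 of 2713 B-like cells held a UMI of Cox6a2, with exact upper limits of 0.183% and 0.136%. These limit the share of B-like cells with a UMI at a median of 5070.5 and 5221 UMIs per cell, not the share expressing the gene, and the cells of the cluster had medians of 13220.5 and 13844. Cox6a2 is among the leading genes of that cluster but was not used to form it. The cluster, with 4 and 6 cells, was given no name because its leading genes held more markers of a class other than its best match. Siglech and Ccr9 are known as genes of plasmacytoid dendritic cells.

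Cox4i2, the lung and hypoxia-linked isoform of subunit 4, had 75 and 31 UMIs in all. Plasma-like cells held 71 of them in 10 of 93 ad libitum cells, up to 32 in 1 cell, and 12 in 5 of 32 FMD cells, up to 5 in 1 cell. No B-like cell held a UMI of Cox4i2 in either library, at less depth per cell. Cox6b2, the testis isoform of subunit 6B, had 28 and 46 UMIs, of which macrophage or dendritic-like cells held 7 in 7 of 129 cells and 20 in 18 of 170, against 6 of 3042 and 6 of 2713 B-like cells with a UMI. Cox7a1, the heart and muscle isoform of subunit 7A, had 10 and 21 UMIs. Ndufa4l2, a hypoxia-inducible relative of Ndufa4, had 2 and 7, of which 6 were in 1 macrophage or dendritic-like cell.

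For the diets, members with at least 100 UMIs over both libraries were compared in the 5 classes with at least 100 cells per library, and counted when they were at least 0.32 apart on the log2 scale. With 1 library per diet these are differences between libraries. In B-like cells 0 of 85 nuclear members were higher in FMD (all genes: 3.38%) and 1 lower (all genes: 4.93%). In helper or naive T-like cells 0 of 80 were higher (all genes: 5.56%) and 1 lower (all genes: 8.27%). In regulatory T-like cells 0 of 78 were higher (all genes: 12.6%) and 5 lower (all genes: 8.38%), in CD8 T-like cells 1 of 77 was higher (all genes: 6.91%) and 6 lower (all genes: 10.1%), and in macrophage or dendritic-like cells 0 of 76 were higher (all genes: 13.7%) and 10 lower (all genes: 14.8%). No mitochondrial member was that far apart in any of the 5 classes among those with enough UMIs. The counts of lower members in regulatory T-like, CD8 T-like and macrophage or dendritic-like cells were near the share of all genes.

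Summed, the nuclear members differed little between the libraries. The log2 ratio of FMD to ad libitum was 0.03 in B-like cells (counting interval 0.02 to 0.03), -0.04 in helper or naive T-like cells (-0.05 to -0.02), -0.08 in regulatory T-like cells (-0.11 to -0.05) and -0.02 in CD8 T-like cells (-0.05 to 0.00). Macrophage or dendritic-like cells had the largest difference, -0.12 (-0.15 to -0.10), with 63 of 76 members below and 13 above zero. That difference was -0.01 when cells were thinned to 1000 UMIs and 0.01 as a mean over cells, and the median cell held 140 nuclear-encoded UMIs per 10000 with ad libitum feeding and 139 with FMD. The FMD cells of this class were deeper, with a median of 14358.5 UMIs against 12444, and the part of depth in the difference was not tested. In B-like cells 57 members lay above and 28 below zero, with a median of 0.04, and all genes had a median of 0.00. The clusters of this class did not share 1 direction. The cluster led by B3gnt7 and Fcrla held 132 and 134 nuclear-encoded UMIs per 10000, in 578 and 865 cells. The Bhlhe41-led cluster held 128 and 134. All other B-like clusters were lower in FMD, as the heat shock cluster with 111 and 109, in 756 and 483 cells. The part of the cluster sizes in the B-like difference was not tested.

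**Figure D5:**
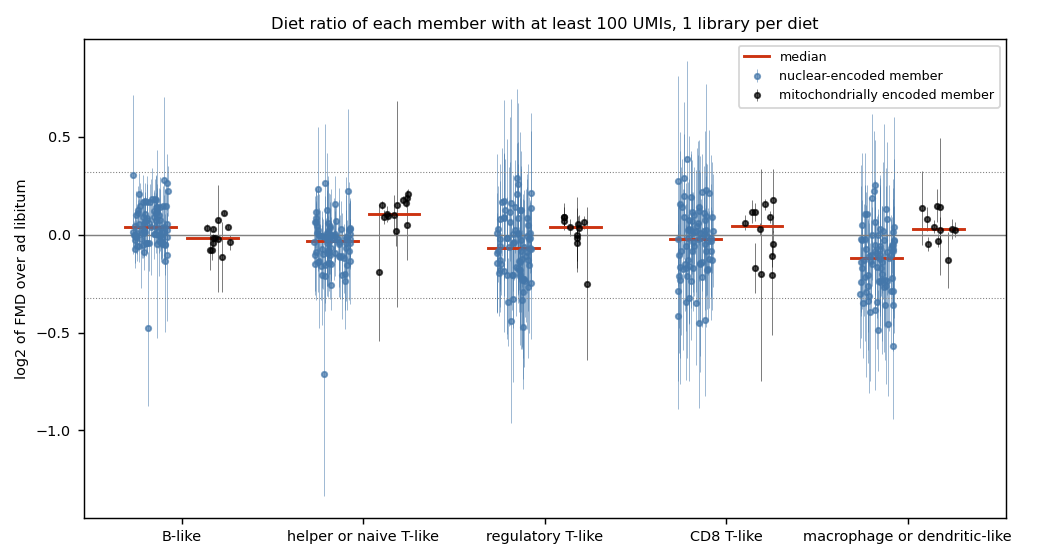
Log2 ratio of FMD to ad libitum CPM for each nuclear and mitochondrial member with at least 100 UMIs, in the 5 classes with at least 100 cells per library, with counting intervals as thin lines, medians as bars and dotted lines at 0.32 in either direction. The nuclear medians lie between -0.12 in macrophage or dendritic-like and 0.04 in B-like cells, and the mitochondrial median is largest in helper or naive T-like cells at 0.11.

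Of these 5 classes, helper or naive T-like cells had the largest difference in the mitochondrial sum, with 499 UMIs per 10000 with ad libitum feeding and 552 with FMD, a log2 ratio of 0.15 (0.14 to 0.16). Of the 13 mitochondrial members 12 were higher in FMD. The genes with the largest ratios were mt-Cytb, the only mitochondrial gene of complex III, with 4762 and 5504 CPM (0.21), mt-Nd4 with 2812 and 3206 (0.19) and mt-Co3 with 10615 and 12004 (0.18), and mt-Atp8 was lower (-0.19). All 3 clusters of the class had the same direction. The cluster led by Ccl20, Il17f and Il22 held 439 and 472 mitochondrial UMIs per 10000, the cluster led by Tnfsf8 and Izumo1r 576 and 649, and the cluster led by Igfbp4 and Lef1 494 and 542. Since all 13 genes are cut from 2 long precursor RNAs, their joint direction is not 13 separate observations. The ratio was 0.092 in cells with at most 10% mitochondrial UMIs, where regulatory T-like cells had 0.094, and 0.17 with no limit on them.

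In the other classes compared by diet the mitochondrial log2 ratio was 0.04 in B-like, 0.06 in regulatory T-like, 0.07 in CD8 T-like and 0.01 in macrophage or dendritic-like cells. In B-like cells mt-Co3 was the highest of the 13, with 11397 CPM with ad libitum feeding and 12317 with FMD (0.11), and mt-Atp8 the lowest, with 35.7 and 33.0 (-0.11). In smaller classes the ratio of the sums was 0.14 in gamma delta T-like, 0.08 in germinal center B-like, -0.03 in plasma-like, -0.11 in innate lymphoid-like and -0.19 in neutrophil-like cells. Plasma-like cells, of which the ad libitum library held 93 and the FMD library 32, thus differed little in either part, with a nuclear-encoded sum of 249 and 253.

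Cycs was lower in FMD in 8 of the 10 classes compared, though by different amounts. In macrophage or dendritic-like cells it stood at 264 CPM with ad libitum feeding and 188 with FMD, a log2 ratio of -0.49 (-0.69 to -0.28). In regulatory T-like cells it stood at 183 and 132 from 216 and 267 UMIs, a ratio of -0.47 (-0.74 to -0.21), and in germinal center B-like cells at 237 and 183 (-0.37). The ratios were small in B-like cells, with 144 and 135 CPM (-0.09), in helper or naive T-like (-0.07), CD8 T-like (-0.04) and plasma-like cells (-0.03), while the level was higher in FMD in gamma delta T-like cells, at 123 and 136 CPM, and in innate lymphoid-like cells, at 173 and 190. Whether the classes differ from each other in this ratio was not tested.

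Other members apart by diet differed from class to class. In B-like cells Ndufaf7, a complex I assembly factor, stood at 8.95 and 6.42 CPM from 140 and 92 UMIs (-0.48), and at the other end Ndufaf5, also an assembly factor, stood at 6.27 and 7.75 (0.31) and Ndufa5 at 47.8 and 57.4 (0.26). In helper or naive T-like cells the lowest was Ndufaf2, an assembly factor, at 13.3 and 8.11 CPM from 62 and 38 UMIs (-0.71), and the ratio was 0.03 after thinning. Next in that class after Ndufaf2 were Ndufa13 at 227 and 190 (-0.26) and Ndufb6 at 65.6 and 55.7 (-0.24), and the highest was Ndufaf8 at 36.6 and 44.0 (0.26). The counting intervals of Ndufaf5 in B-like and of Ndufaf8 in helper or naive T-like cells include 0.

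In regulatory T-like cells Ndufaf4 (-0.44) and Ndufa4, at 244 and 192 CPM (-0.35), followed Cycs, while Ndufs8 (0.29), Ndufb6 (0.26) and Sdhd (0.21) were at the upper end, and all of these but Ndufa4 and Cycs had intervals that include 0. In CD8 T-like cells the lowest were Ndufb4 at 65.1 and 47.7 CPM (-0.45), Sdha at 80.5 and 59.4 (-0.44, -0.82 to -0.06) and Uqcr11 at 53.6 and 40.2 (-0.41, -0.89 to 0.05). The 1 member counted as higher in FMD was Ndufs5, at 35.6 and 46.4 CPM (0.38), whose interval of -0.11 to 0.89 includes 0 and whose ratio was -0.17 after thinning. In macrophage or dendritic-like cells the lowest was Ndufs6, an accessory subunit of complex I, at 86.0 and 57.9 CPM (-0.57), and the highest Ndufb11 at 174 and 207 (0.25). Ndufb2, at 83.8 and 61.0 CPM (-0.46) in the same class, had a ratio of 1.12 after thinning.

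Other nuclear genes for mitochondria were read beside the members in the same way. In B-like cells the counts past the same distance were 0 higher and 1 lower of 16 regulators compared, 0 and 0 of 17 genes of the tricarboxylic acid cycle, 2 and 0 of 26 assembly factors of complexes III and IV, 0 and 0 of 21 import genes, 0 and 0 of 7 carriers, and 1 and 0 of 77 mitochondrial ribosomal protein genes. Of all genes compared in B-like cells, 3.38% were higher and 4.93% lower. The regulator at the lower end was Esrra, an estrogen-related receptor, with 12.6 and 9.78 CPM (-0.37), and at the upper end was Tefm (0.30), with Nrf1 at 42.3 and 49.2 (0.22). Among the import genes and chaperones Hspd1, the HSP60 chaperonin, stood at 212 and 180 CPM (-0.24) and Hspa9 at 149 and 172 (0.20). In the other 4 classes the largest lists are given whole. Of the mitochondrial ribosomal protein genes, 1 was higher and 3 lower of 74 in helper or naive T-like cells (all genes: 5.56% and 8.27%), 4 and 1 of 47 in regulatory T-like (12.6% and 8.38%), 2 and 1 of 52 in CD8 T-like (6.91% and 10.1%) and 7 and 12 of 44 in macrophage or dendritic-like cells (13.7% and 14.8%). In the same order of classes, the assembly factors had 2 higher and 2 lower of 22 (all genes: 5.56% and 8.27%) and 2 and 1 of 15 (12.6% and 8.38%). They then had 0 and 5 of 14 (6.91% and 10.1%) and 0 and 3 of 12 (13.7% and 14.8%). The import genes had 0 and 2 of 21 (all genes: 5.56% and 8.27%), 0 and 3 of 16 (12.6% and 8.38%), 0 and 4 of 16 (6.91% and 10.1%), and 2 and 3 of 16 (13.7% and 14.8%). The medians of the lists in B-like cells, from -0.03 for the regulators to 0.04 for the carriers and the mitochondrial ribosome, bracket the 0.04 of the respiratory chain.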

How the data were processed

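The authors deposited raw UMI counts per gene and barcode, as filtered matrices with whole-number values per the file headers. CASAVA 1.8, Cell Ranger 3.1.0, Seurat 2.3.4 and build GRCm38 are named in the submitters' processing notes, and their settings are not given in the sources used here. Each library is 1 sample of 4 pooled mice, so no test between diets was run. Barcodes with at least 200 genes and at most 20% mitochondrial UMIs were kept, which removed 475 and 441 barcodes for few genes and 661 and 694 for mitochondrial UMIs in the ad libitum and FMD libraries. Scrublet marked 2 and 2 barcodes and had not worked, so doublets were removed by co-expression of marker panels (84 and 119).

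Respiratory chain, mitochondrial, immunoglobulin, T cell receptor segment and ribosomal protein genes were left out before variable genes were chosen. Clustering used scanpy 1.11.5 with 2000 variable genes, 30 components, 15 neighbors and Leiden (leidenalg 0.10.2) at resolution 1. It ran under python 3.11.15, numpy 2.4.6 and scipy 1.17.1. It gave 24 clusters. UMIs were summed per class and library and divided by UMIs outside 393 immunoglobulin genes and all mitochondrial genes. Sums have exact Poisson intervals and ratios exact conditional binomial intervals at 95%, for counting error only. The scripts were tested on simulated data.

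Named genes were all mitochondrial members, complex II, Cycs, the isoform sets, per complex the nuclear members with the most and fewest UMIs, in each class the 3 highest and 3 lowest, and of other lists the 2 highest and 2 lowest in B-like cells. Those members and lists were chosen with earlier results of these data known. Settings varied were the denominator, the mitochondrial limit, doublet removal, resolution, variable genes, thinning to 1000 UMIs, the mean over cells and the minimum UMIs per gene. Promoters of 16 members were not analysed here.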

Additional observations from a re-analysis of the deposited data

Results flagged for a closer look

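The complex I assembly genes, as a sum, had opposite directions between the diets in some of the small classes. Their log2 ratio of FMD to ad libitum was 0.41 in neutrophil-like cells, from 20 and 18 UMIs, against -0.40 in gamma delta T-like cells, from 110 and 53 UMIs, and -0.37 in innate lymphoid-like cells, from 22 and 55 UMIs. They were singled out because each class has 1 library per diet and the directions are opposite. The difference between the classes was not tested, and the UMIs behind it are few. In neutrophil-like cells 14 and 13 of these UMIs were of Ndufaf7 alone, with a ratio of 0.45 (counting interval -0.75 to 1.65). For every single assembly gene in these classes the counting interval spanned both directions.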

How the results depend on the processing

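Counting intervals do not cover differences between mice, and no value here has a replicate. No paired analysis was possible because each diet has 1 library. Of 920 values of single genes by diet, 800 stayed within the counting interval of the value reported, 116 moved and 4 that were at least 0.32 from 0 turned over, all after thinning to 1000 UMIs, where few UMIs remain: Ndufs5 in CD8 T-like cells was -0.17, Ndufb2 in macrophage or dendritic-like cells 1.12, Ndufaf2 in helper or naive T-like cells 0.032 and mt-Atp8 in regulatory T-like cells 0.32. The last, at -0.35 from 38 and 51 UMIs, is under the 100 UMIs needed to be counted as apart. Of 566 values of single genes against B-like cells 1 turned over, Ndufaf8 in CD8 T-like cells, at 0.11 after thinning. The causes were not tested.

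The nuclear-encoded log2 ratio of FMD to ad libitum was after thinning 0.014 in B-like, -0.038 in regulatory T-like and -0.014 in macrophage or dendritic-like cells. In CD8 T-like cells it was 0.064 with a mitochondrial limit of 10%, 0.071 without doublet removal and -0.060 at resolution 0.5. In macrophage or dendritic-like cells it was -0.16 with the 10% limit and 0.011 as a mean over cells.

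The mitochondrial log2 ratio in B-like, helper or naive T-like, regulatory T-like, CD8 T-like and macrophage or dendritic-like cells was 0.031, 0.16, 0.030, 0.093 and 0.029 without ribosomal protein genes in the denominator, and 0.017, 0.092, 0.094, 0.042 and 0.069 with the 10% limit. With no mitochondrial limit it was 0.057, 0.17, 0.11 and -0.045 in B-like, helper or naive T-like, CD8 T-like and macrophage or dendritic-like cells. In helper or naive T-like cells it was 0.13 without doublet removal, 0.14 at resolution 0.5 and 0.13 with members among the variable genes, a setting that gave 0.075 in regulatory T-like cells, and in CD8 T-like cells it was 0.037 at resolution 0.5. After thinning it was 0.13, 0.029, 0.095 and -0.058 in helper or naive T-like, regulatory T-like, CD8 T-like and macrophage or dendritic-like cells. As a mean over cells it was 0.041, 0.13, 0.10 and -0.021 in B-like, helper or naive T-like, CD8 T-like and macrophage or dendritic-like cells.

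Against B-like cells, the nuclear-encoded log2 ratio of plasma-like cells turned to -0.28 with all UMIs as denominator, and was 0.82 without ribosomal protein genes, 1.08 with no mitochondrial limit and 0.95 after thinning. Their mitochondrial ratio was -1.33, -0.23, 0.20 and 0.27 under the same settings and 0.020 with the 10% limit. The nuclear-encoded ratio of neutrophil-like cells was -1.56 without ribosomal protein genes and -0.92 with the 10% limit. Their mitochondrial ratio was -0.95 with all UMIs, -1.54 without ribosomal protein genes, -1.16 with the 10% limit, -0.69 with no limit, -0.87 without doublet removal and -1.07 after thinning. The nuclear-encoded sum was below B-like cells in 2 classes with all UMIs as denominator and in 1 otherwise; the mitochondrial sum was above them in 1 class with the 10% limit, 2 with no limit and 1 after thinning, and below them in 5 after thinning.

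Members, nuclear and mitochondrial, at least 0.32 apart by diet on the log2 scale are given with the share of all genes so far apart. In B-like cells 3 were apart when genes with 1 UMI or more were counted (all genes 36.5%; 8.32% as reported). In helper or naive T-like cells there were 0 at resolution 0.5 (14.0%), 0 with members among the variable genes (13.9%), 10 of 59 after thinning (17.8%), 3 at 20 UMIs (24.6%) and 7 at 1 UMI (43.3%; 13.8% as reported). In regulatory T-like cells there were 8 of 33 after thinning (26.8%), 9 at 20 UMIs (35.6%) and 12 at 1 UMI (54.0%; 21.0% as reported). In CD8 T-like cells there were 12 of 76 at resolution 0.5 (18.9%), 3 of 25 after thinning (17.9%) and 12 at 1 UMI (51.1%), and in macrophage or dendritic-like cells 3 of 16 after thinning (31.2%) and 20 at 1 UMI (59.7%; 28.5% as reported).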

Other observations

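An unnamed cluster of low depth, led by hemoglobin genes and Ryr2, had 121 ad libitum and 128 FMD cells. Its mitochondrial members stood at 1128 and 1243 UMIs per 10000 and its nuclear members at 70.7 and 75.6, a ratio of 15.9 and 16.4. Its median cell had 1322 and 1726.5 UMIs.

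The CD8 T-like class held a naive-like and an effector-like cluster by their leading genes. The cluster led by Dapl1, Igfbp4 and Cd8b1 had 127 and 121 nuclear-encoded and 529 and 534 mitochondrial UMIs per 10000, and the cluster led by Ccl5, Eomes and Ifng had 144 and 150 nuclear-encoded and 438 and 475 mitochondrial UMIs. The nuclear-encoded level was thus higher and the mitochondrial level lower in the Ccl5-led cluster in both libraries.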
